A study of Drosophila montana and Drosophila virilis with 10 samples.

Results

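The change in whole-fly messenger RNA that cold acclimation brought in common to Drosophila montana and Drosophila virilis was estimated from all 10 libraries of the series, with 1 acclimation coefficient per gene and species as an additive factor. The 5 acclimated libraries (3 D. montana, 2 D. virilis) were set against the 5 control libraries (3 D. montana, 2 D. virilis), which had been kept at ambient temperature. D. montana was strain 175OJ8 from Oulanka, Finland, in pools of 10 flies with stated ages of 21 to 23 days after eclosion in controls and 24 to 26 days in acclimated pools. D. virilis was strain TOY3F9 from Toyama, Japan, in pools of 20 flies with stated ages of 27 to 28 days and 29 to 30 days. There was 1 strain per species, and neither the labels nor the series text state the temperature, the length of acclimation or the sex of the flies. These ages go up by exactly 1 day from sample to sample across all 10 in deposit order, so they may not be the true ages. Taken as stated, age and acclimation cannot be told apart. Species likewise cannot be told apart from strain and pool size. Nothing in the labels states that the pools were raised separately, so p-values rest only on the spread among these pools, which may include technical variation. In the common fit that spread also holds any difference in response between the species.

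Genes were included when they were expressed in both species. Of 15342 identifiers, 9315 passed the expression filter in D. montana and 7692 in D. virilis, and 7443 passed in both and were tested. The 7443 genes held 96.0% to 97.3% of the gene reads of each library. Left out were 1872 genes that passed in D. montana only, 249 that passed in D. virilis only and 5778 that passed in neither. Genes are given by FlyBase identifier, since 0 of the identifiers occur in the reference table used here. For that reason 0 pathway or tissue marker lists were tested, and no sequence, position or function is attached to any gene. In bulk RNA of whole flies, fewer cells of a type and less RNA per cell cannot be told apart.

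Cold acclimation is a rise in cold tolerance after a period at low but harmless temperature. In insects it is known to involve remodelling of membrane lipids, accumulation of sugars and polyols that act as cryoprotectants, changes in ion balance, and expression of stress proteins and other chaperones. Both species belong to the D. virilis group. D. montana is a northern species that overwinters as an adult, and D. virilis is a related species with a more southern range.

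Library depth differed mainly between the species. The D. montana libraries held 1518027 to 2235850 gene reads each and the D. virilis libraries 650517 to 1316804. In CPM (reads of a gene scaled to the library total), a gene without reads may still be at 1.98 or 4.61 in the shallowest library of D. montana and D. virilis (the limit of 3 counts of the total, counting error only). The biological coefficient of variation was 18.8% in the common fit, which includes any difference in response between the species. With a separate mean for each group it was 17.3%, and within species 15.1% in D. montana and 23.2% in D. virilis. The common fit takes 1 spread per gene for both species. The median standard error of a log2 fold change was 0.18 in the common fit, 0.19 with D. montana alone and 0.35 with D. virilis alone. Of the variation of log2 CPM within species, the common acclimation term took 24.9% on 1 degree of freedom, the difference in response between the species 17.6% on 1, and libraries within groups 57.5% on 6. The mean squares per gene were 0.325, 0.230 and 0.125.

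After the mean of each species was removed, the first principal component held 34.6% of the remaining variance, and all 5 acclimated libraries scored above all 5 controls on it. D. montana controls scored −7.45, −4.77 and −3.52, and acclimated pools 5.88, 5.15 and 4.71. D. virilis controls scored −21.9 and −27.3. The acclimated D. virilis libraries scored 44.1 and 5.07, so acclimated 1 stood apart from the rest on this component. On the second component, with 17.9% of the variance, the D. montana groups were again separate, whereas the acclimated D. virilis libraries lay at opposite ends with −17.1 and 29.1. The number of calls is therefore also given without D. virilis acclimated 1.

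**Figure D1:**
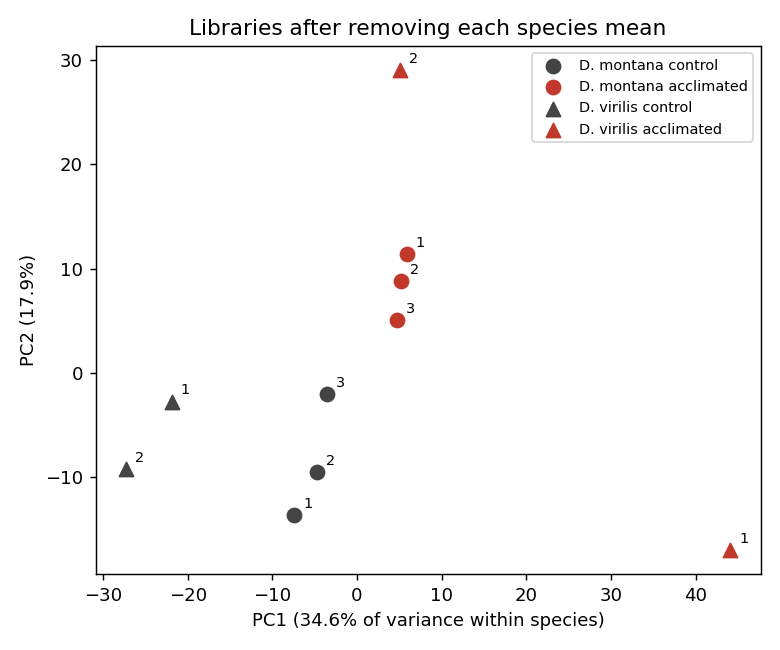
Scores of the 10 libraries on the first and second principal components of log2 CPM over 7443 genes, after subtracting the mean of each species; circles are D. montana, triangles D. virilis, red acclimated, grey control, and numbers are replicate numbers. All red points lie to the right of all grey points on the first component, and D. virilis acclimated 1 lies far to the right at 44.1.

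The common acclimation effect passed the threshold for 191 of 7443 genes, 2.57% of those tested (edgeR's quasi-likelihood test, Benjamini-Hochberg adjusted p under 0.05). Of these, 136 rose (1.83%) and 55 fell (0.739%). Among the rises the median common log2 fold change was 0.89, or 1.86-fold, with an upper quartile of 1.15. Among the falls it was −1.06, or 2.09-fold, with a lower quartile of −1.42. The median over all tested genes was −0.008. At least a 2-fold change was reached by 54 rises and 31 falls, and at least a 4-fold change by 4 and 4. Only 11 and 6 of the called genes changed by less than 1.5-fold.

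The count changed when single libraries were left out, which also leaves the test fewer libraries. It was 116 without D. montana control 1, 101 without control 2, 136 without acclimated 1, 110 without acclimated 2 and 115 without acclimated 3. It was 123 without D. virilis control 1, 124 without D. virilis control 2 and 164 (115 that rose and 49 that fell) without D. virilis acclimated 1, the library that stood apart. Without D. montana control 3 it was 228, of which 185 rose (81.1%, against 71.2% with every library). When the 20 most abundant genes were left out of the library sizes, 92 rose and 67 fell, so 57.9% of the calls were upward. DESeq2's Wald test called 303 genes, and a fit with a separate mean for each group, its effect averaged equally over the species, called 393. Whichever library was left out, 78 of the 191 genes kept their call (54 that rose and 24 that fell), and 0 of the 191 changed sign in those fits or in the other alternatives that used both species.

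**Figure D2:**
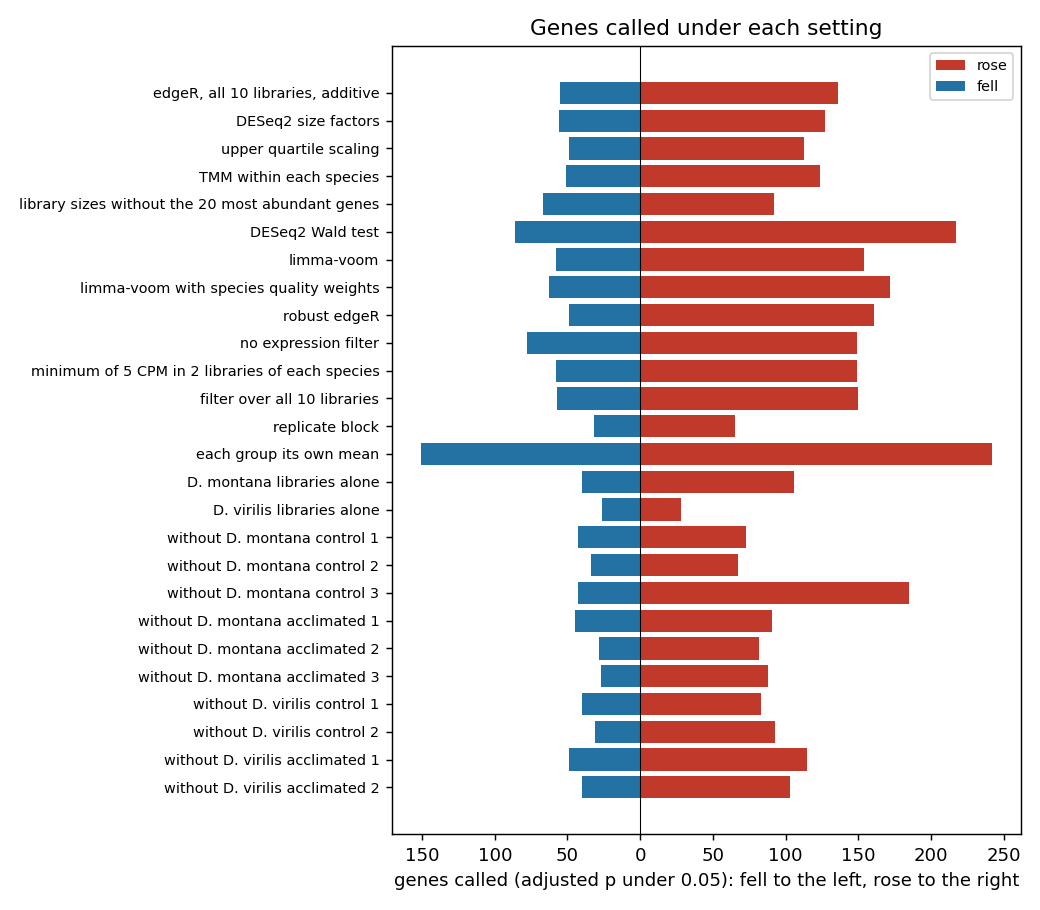
Number of genes called for the common acclimation effect (horizontal axis) under each setting (rows), with genes that fell to the left of 0 and genes that rose to the right. The top bar shows the 136 genes that rose and the 55 that fell in the additive fit of all 10 libraries, and rises outnumber falls in every row.

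An unadjusted p under 0.05 was obtained by 1261 genes (16.9%), of which 774 (10.4%) were higher and 487 lower after acclimation. Across all tested genes, 3637 had a common log2 fold change above 0 and 3806 below 0. The scaling centres this balance near 0. A common change of at least 2-fold in either direction was estimated for 133 genes, of which 77 were higher, 54 of them called, and 56 were lower, 31 of them called.

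The share of genes called was highest among well-expressed genes. Among the 2481 most abundant tested genes (88 CPM and above), 78 rose and 23 fell (4.07% called). Among the middle 2481, 26 rose and 19 fell, and among the 2481 least abundant, 32 rose and 13 fell (1.81% called in each). The median standard error was 0.144, 0.177 and 0.25 in these classes. Of the 100 most abundant genes, 0 were called in either direction, and the most abundant called genes were those ranked 103 (it rose) and 120 (it fell). As 2.57% of all tested genes were called, few calls were due among 100 genes, and the difference was not tested. The median level was 114 CPM for genes that rose, 75.8 CPM for genes that fell and 58.8 CPM for all tested genes.

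By FlyBase number, 125 rises and 53 falls were among the 7253 tested genes numbered 190000 to 230000 (2.45% called). Of the 128 genes with lower numbers, 7 rose and 2 fell (7.03%). Of the 62 with higher numbers, 4 rose and 0 fell (6.45%). These shares rest on few genes and were not tested.

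The share of gene reads taken by the called genes is a description, since the same libraries chose them. The 136 genes that rose took 1.35%, 1.56% and 1.77% of gene reads in the D. montana controls and 2.60%, 2.85% and 2.64% in the acclimated pools. In D. virilis they took 2.25% and 2.16% in controls and 3.75% and 3.86% after acclimation. The 55 genes that fell took 1.10%, 1.09% and 1.43% in D. montana controls against 0.569%, 0.462% and 0.495%, and 0.927% and 1.02% in D. virilis controls against 0.465% and 0.530%. In both species, therefore, no acclimated library overlapped a control in either share. Within the genes that rose, the 10 with the largest change in read share made up 34.7% of the summed change in D. montana and 48.9% in D. virilis. Within the genes that fell, the 10 largest made up 73.9% and 54.2%. D. montana control 3 lay nearest to the acclimated pools for the genes that rose (median log2 deviation from the species mean −0.24, against −0.66 and −0.46 in controls 1 and 2). For the genes that fell it lay farthest from them (0.91, against 0.30 and 0.35).

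The 2 reported genes that rose had the largest common change among called genes whose control and acclimated libraries did not overlap in either species. FBgn0207382 was at 0.552, 3.15 and 1.03 CPM in the D. montana controls and at 11.6, 9.43 and 10.3 CPM in the acclimated pools. In D. virilis it was at 6.14 and 4.69 CPM in controls and 25.2 and 17.1 CPM after acclimation. Every acclimated library thus stood above every control of either species, on 1 to 5 reads per control library. Its common log2 fold change was 2.39 (SE 0.40, 5.23-fold, edgeR adjusted p = 0.0038, n = 5 libraries a group). The log2 fold change was 2.74 (SE 0.52) within D. montana and 1.92 (SE 0.68) within D. virilis.

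FBgn0207040 was at 6.07, 4.41 and 5.68 CPM in the D. montana controls and at 25.5, 17.8 and 23.2 CPM in the acclimated pools. In D. virilis it was at 6.14 and 7.04 CPM in controls, on only 4 and 6 reads, and 34.8 and 27.4 CPM after acclimation. The controls of both species lay close together, and all acclimated libraries lay above them. Its common log2 fold change was 2.08 (SE 0.26, 4.22-fold, edgeR adjusted p = 0.00047), with 2.02 (SE 0.30) in D. montana and 2.18 (SE 0.58) in D. virilis.

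Of the 2 reported genes that fell, FBgn0202464 was at 25.4, 18.3 and 38.2 CPM in the D. montana controls and at 5.80, 10.5 and 4.46 CPM after acclimation. In D. virilis it was at 35.3 and 37.5 CPM in controls and 6.01 and 3.43 CPM after acclimation, the latter on only 5 and 4 reads. All acclimated libraries were below all controls. Its common log2 fold change was −2.28 (SE 0.33, 4.85-fold, edgeR adjusted p = 0.0018), with −2.0 (SE 0.37) in D. montana and −2.98 (SE 0.60) in D. virilis.

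FBgn0204779 was at 65.7, 61.7 and 111 CPM in the D. montana controls and at 19.1, 11.7 and 25.4 CPM after acclimation. In D. virilis it was at 50.6 and 53.9 CPM in controls and 12.0 and 8.57 CPM after acclimation. Again all acclimated libraries were below all controls. Its common log2 fold change was −2.15 (SE 0.24, 4.43-fold, edgeR adjusted p = 0.00023), with −2.07 (SE 0.29) in D. montana and −2.38 (SE 0.46) in D. virilis. These 4 genes passed the threshold in all 23 alternatives that used both species, and their interaction adjusted p-values were 0.76, 0.94, 0.635 and 0.881 in edgeR's test, which does not show that they respond alike.

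The largest called change was of another kind. FBgn0204686, reported after its values had been seen, rose 24.6-fold in common (log2 4.62, SE 1.12, edgeR adjusted p = 0.038). It was at 17.1, 9.45 and 18.1 CPM in the D. montana controls and at 13.9, 616 and 15.6 CPM in the acclimated pools. In D. virilis it was at 15.3 and 18.8 CPM in controls and 28.8 and 2195 CPM after acclimation. In each species, then, 1 acclimated library, numbered 2 in both, was far above all others, and the other acclimated D. montana pools overlapped the controls. The call was lost in 11 of 23 alternatives. The log2 fold change was 3.0 without D. montana acclimated 2 (edgeR adjusted p = 0.26) and 3.24 without D. virilis acclimated 2 (edgeR adjusted p = 0.13), and 2.69 with limma-voom (adjusted p = 0.41). It also missed the threshold without D. montana control 1 (edgeR adjusted p = 0.085), control 2 (0.0995) or control 3 (0.057), and without D. virilis control 1 (0.11) or control 2 (0.11).

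**Figure D3:**
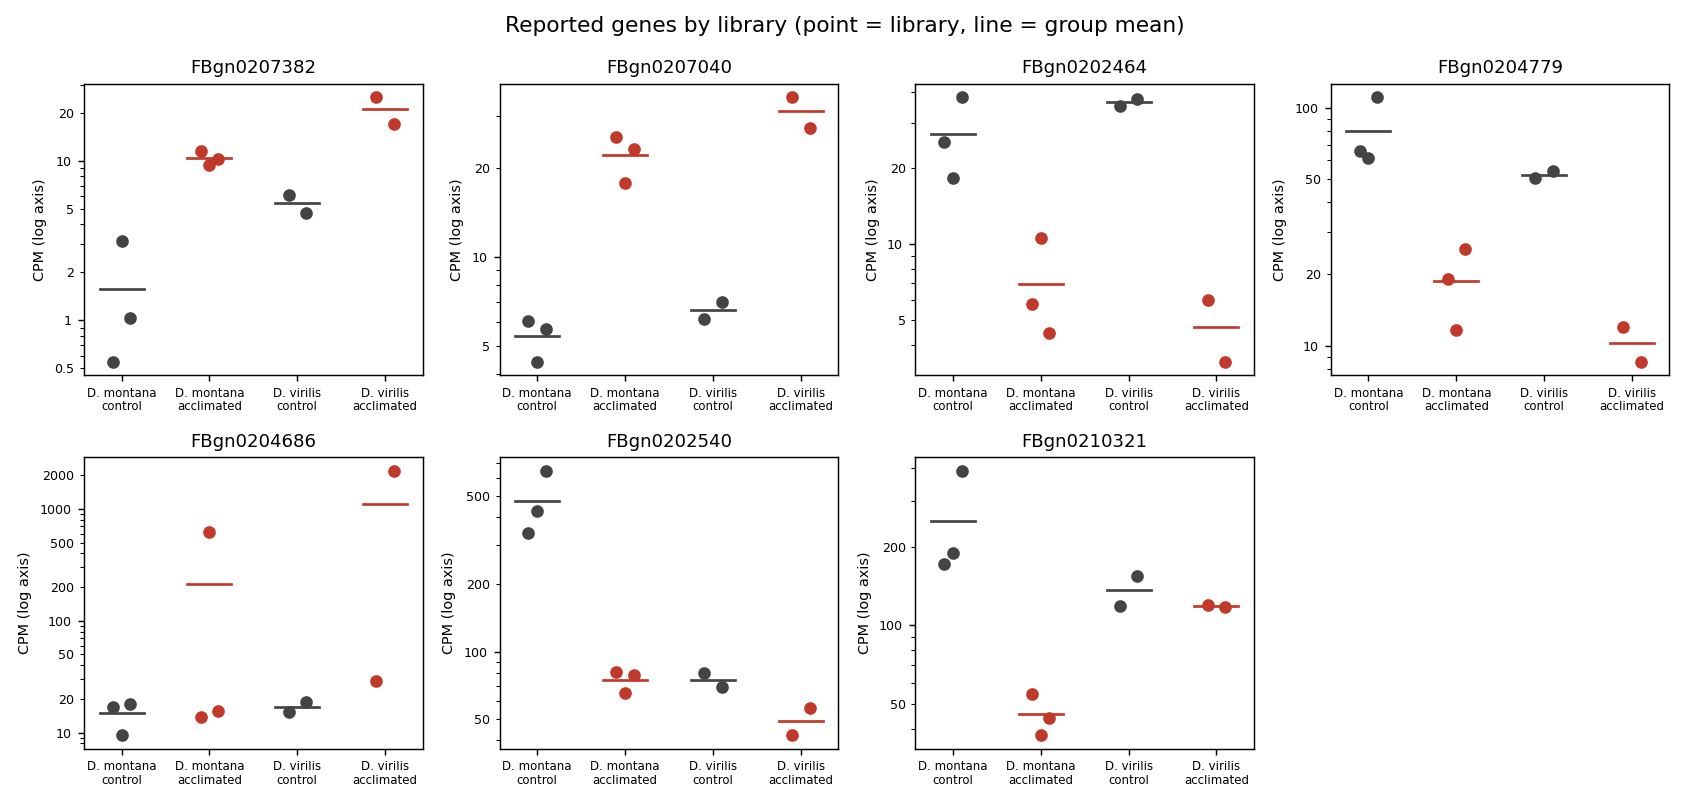
Normalised level in CPM (log axes) of each reported gene in each of the 10 libraries, with control libraries in grey, acclimated in red and group means as lines. FBgn0207382, FBgn0207040, FBgn0202464 and FBgn0204779 separate the conditions in both species, FBgn0204686 is high in 1 acclimated library of each species (616 and 2195 CPM), and FBgn0202540 and FBgn0210321 fall mostly in D. montana.

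How far the common change was shared was examined from the fold changes of each species. All 191 called genes had the same sign in D. montana and in D. virilis, whereas 59.2% of all 7443 genes did. A common coefficient favours genes that move one way in both, so this count is not independent evidence. For the 136 rises the median log2 fold change was 0.93 in D. montana (range 0.34 to 3.83) and 0.91 in D. virilis (range 0.27 to 5.98). The 55 that fell had medians of −1.02 (range −2.66 to −0.36) and −1.01 (range −3.56 to −0.23). The change was larger in D. virilis for 69 rises and larger in D. montana for 67, and for the falls the numbers were 32 and 23. At least a 1.5-fold change in each species was reached by 80 of the 136 and 43 of the 55, and at least 2-fold in each by 28 and 16. Over all tested genes the median log2 fold change was −0.006 in each species. The libraries that gave these medians and counts also chose the genes, so they are descriptions. The fold counts were not made over all tested genes.

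**Figure D4:**
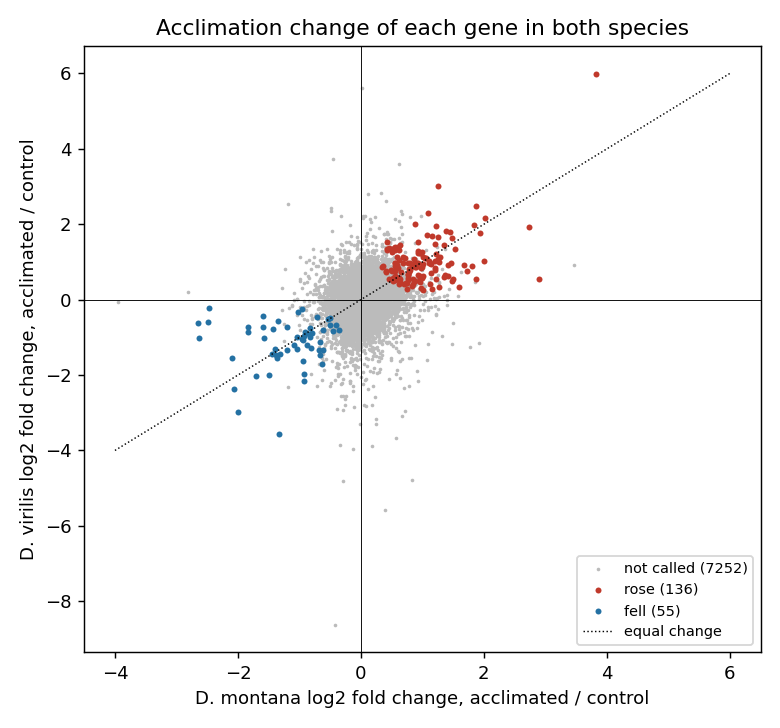
Log2 fold change (acclimated over control) of each of the 7443 genes in D. montana (horizontal axis) and D. virilis (vertical axis), with genes called for the common effect in red (136 rose) and blue (55 fell) and the dotted line marking equal change. Red points all lie in the upper right quadrant and blue points all in the lower left.

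Fitted on the same 7443 genes, D. montana alone gave 146 calls (1.96%) and D. virilis alone 54 (0.726%). The 191 common calls included 98 of the D. montana calls, which is 67.1% of those and 51.3% of the common calls. They included 23 of the D. virilis calls, which is 42.6% of those and 12.0% of the common calls. D. montana gave 6 of the 10 libraries and the smaller standard errors, so it weighs more in the common coefficient. With D. montana alone, 134 of the 136 rises and 53 of the 55 falls had an unadjusted edgeR p under 0.05. With D. virilis alone, 101 and 38 had. Over all 7443 genes the numbers were 1043 and 984. Of the common calls, 81 (42.4%) were called in neither species alone, 59 that rose and 22 that fell, and 11 were called in both. These lists and counts share libraries with the common calls, so they are descriptions.

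The sign and size of the change were also compared by expression level over all tested genes, where the species share no library. The 2 species had the same sign for 64.3% of the 2481 most abundant genes, 57.2% of the middle 2481 and 56.2% of the 2481 least abundant. The correlation of their log2 fold changes across genes was r = 0.39 (Spearman rho = 0.40) among the most abundant genes, 0.21 (0.21) in the middle and 0.22 (0.19) among the least abundant. Genes are not independent replicates, and read depth falls with expression level, so these values are descriptions.

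Separation of the libraries gave a count that needs no fitted model but rests on the scaling of the CPM. For 528 genes (7.09%), control and acclimated libraries did not overlap in either species and moved in 1 direction, upward for 320 (4.3%) and downward for 208 (2.79%). Non-overlap in both species with opposite directions was found for 174 genes (2.34%). Of the called genes, 112 of the 136 that rose and 43 of the 55 that fell were separated in this way. The same libraries chose the called genes, so this last count is a description.

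Because the same libraries chose and measured the genes, each pair of a control and an acclimated library with the same number was also left out in turn. The numbers are not known to pair pools, so the pairs are arbitrary, and the fits share most libraries. The values are therefore descriptions. The genes tested differed between these fits (7303 to 7666). Genes were called from the other 8 libraries and then read in the pair that had not been used. Without the D. montana pair 1, 51 genes rose, and 46 of them were higher in the acclimated library of that pair, with a median log2 difference of 1.12. Of the 41 that fell, 27 were lower there, with a median of −0.44. Without pair 2 the numbers were 31 of 32 (median 1.33) and 15 of 15 (median −1.45).

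Without the D. montana pair 3, 103 of 129 genes that rose were higher in that pair, but with a median of only 0.34, and 27 of 29 that fell were lower, with a median of −1.74. Without the D. virilis pair 1, 87 of 105 (median 0.78) and 43 of 53 (median −0.83) moved the same way. Without the D. virilis pair 2, 79 of 87 (median 0.67) and 31 of 31 (median −1.07) did. Over all tested genes the median difference within a pair lay between −0.004 and 0.028. The direction fitted from the other 8 libraries was met by 58.8%, 57.9% and 54.0% of all tested genes in the D. montana pairs 1, 2 and 3, and by 59.1% and 61.6% in the D. virilis pairs 1 and 2. The called genes had it in 79.8% to 96.9% of cases when they rose and in 65.9% to 100% when they fell. The lowest share was that of the falls in D. montana pair 1, 65.9% against 58.8% of all tested genes in that pair. The smallest median for rises was in D. montana pair 3 and the smallest for falls in D. montana pair 1. Pair 3 holds the control that lay nearest to the acclimated pools for the 136 genes that rose, which that library helped to choose. A link between the median and this control was not tested.

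**Figure D5:**
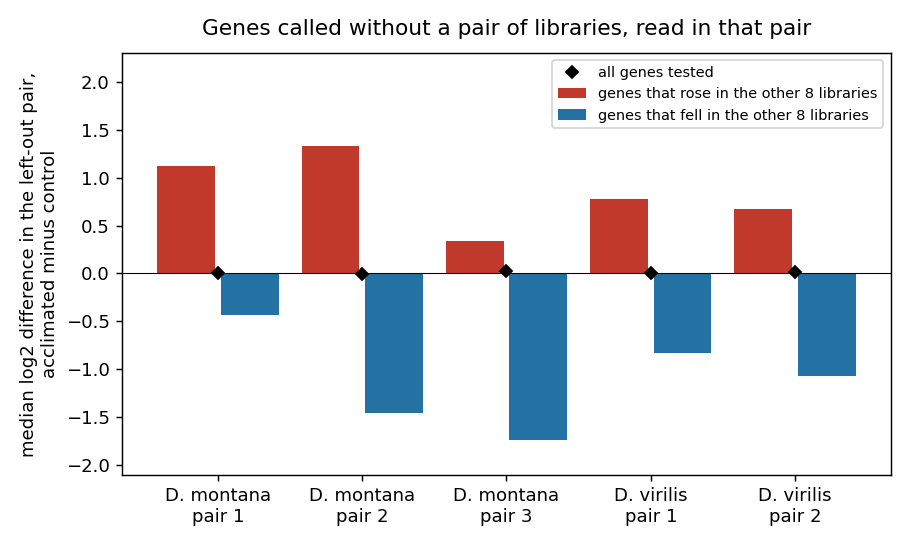
Median log2 difference (acclimated minus control) in each left-out pair of libraries for the genes that rose (red bars) or fell (blue bars) in the other 8 libraries, with the median of all tested genes as black diamonds. Every red bar lies above 0 and every blue bar below, from 0.34 to 1.33 and from −1.74 to −0.44, while the diamonds lie between −0.004 and 0.028. The libraries of a pair share only a replicate number, which is not known to pair pools.

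A common coefficient assumes like changes in both species, and the interaction tested that assumption. It passed for 22 of the 7443 genes (0.296%), and 2 of these were among the 191 common calls, both among the genes that fell. The number was 0 without D. virilis control 1 or control 2, 4 without D. montana control 3 or D. virilis acclimated 2, and 1 without D. montana acclimated 1, 2 or 3 or D. virilis acclimated 1. With upper quartile scaling it was 1, and with DESeq2 size factors 3. At an unadjusted p under 0.05 the interaction was seen for 20 of the rises and 9 of the falls, and for 11.5% of all tested genes. The common fit counts a difference in response as spread, so genes with a strong difference were less likely to be among the 191. Counts of common calls with an interaction are therefore descriptions, and they do not show that the other calls respond alike.

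Both genes, reported because so few passed and after their values had been seen, fell further in D. montana. FBgn0202540 was at 339, 426 and 648 CPM in the D. montana controls and at 80.6, 64.9 and 78.5 CPM after acclimation, against 79.8 and 69.2 CPM and then 42.1 and 55.7 CPM in D. virilis. The groups did not overlap in either species, but the difference in D. virilis was much smaller. Its log2 fold change was −2.66 (SE 0.23) in D. montana and −0.62 (SE 0.30) in D. virilis, and −2.01 (SE 0.31, edgeR adjusted p = 0.0031) in common. FBgn0210321 was at 172, 190 and 391 CPM in the D. montana controls and at 54.5, 37.7 and 44.2 CPM after acclimation. In D. virilis it was at 118 and 154 CPM in controls and 119 and 117 CPM after acclimation, so the D. virilis groups overlapped. The common log2 fold change, −1.61 (SE 0.36) with an edgeR adjusted p of 0.026, therefore came mostly from D. montana, with −2.47 (SE 0.29) there and −0.23 (SE 0.23) in D. virilis. The common call of FBgn0210321 was lost in 6 of 23 alternatives, among them the fits without D. montana control 2 (edgeR adjusted p = 0.053), acclimated 1 (0.083), acclimated 2 (0.091) or acclimated 3 (0.086), and the fit with robust edgeR (0.16).

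The classes of reads outside the gene counts were compared in the same pooled way, as the mean over the species of the difference between acclimated and control libraries. Reads aligned to more than 1 place were 4.50 percentage points higher after acclimation, reads outside annotated genes 2.78 points lower and gene reads 1.73 points lower. The exact permutation tests within species, two-sided, gave p = 0.067, 0.05 and 0.067, and adjusted over 5 measures 0.11 for each (the smallest possible p is 0.017). Leaving out each library in turn gave permutation p-values of 0.017 to 0.10, 0.017 to 0.10 and 0.033 to 0.12, the lowest without D. montana acclimated 2 (0.017, 0.017 and 0.033). Among reads placed once, gene reads were 0.92 points higher after acclimation and reads outside annotated genes 0.92 points lower (exact permutation p = 0.73 for each). The share of gene reads taken by the 20 most abundant genes differed by 0.176 points (exact permutation p = 0.87, adjusted 0.87) and the number of genes with at least 1 read by −170.5 (exact permutation p = 0.67, adjusted 0.83). That number was higher by 218 in acclimated D. montana and lower in acclimated D. virilis, at −559, and the pooled difference was −406.9 after thinning to the shallowest library (exact permutation p = 0.63). The part of these read classes in the gene results was not tested.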

How the data were processed

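The authors deposited raw read counts per gene identifier, 1 file per library, and the submitters' processing notes name HTSeq as the counter. The aligner, build, annotation, counting mode and strand setting were not given in the sources used here. Each file ends with 5 counters without a gene, which were kept out of library sizes and tests. The 2 that hold most reads were alignments to more than 1 place and reads outside annotated genes, and both split by species. Alignments to more than 1 place took 18.4% to 23.8% of reads in every D. montana library. Each D. virilis library lay far higher, at 75.6% to 83.4%. Reads outside annotated genes took 53.1% to 56.6% of D. montana reads, against 8.86% to 14.9% for D. virilis. Gene reads were 23.1% to 26.4% of all reads for D. montana but only 6.8% to 9.5% for D. virilis. Near-identical genes may have lost reads to alignments at more than 1 place, so their counts are uncertain.

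Groups came from the sample titles. Genes had to pass edgeR's expression filter (minimum count 10, minimum total 15) in each species. Genes were tested with edgeR 4.0.16 under R 4.3.3 with limma 3.58.1, by the quasi-likelihood F-test on the deposited counts with TMM scaling over all 10 libraries, species plus acclimation, and Benjamini-Hochberg adjustment over 7443 genes. The standard error is the unshrunken log2 change over the square root of F. CPM use TMM-scaled library sizes. Within each group, replicate libraries differed by more than sampling noise (chi-square per degree of freedom 4.33 to 10.8), so none was counted as a duplicate. Principal components used log2 CPM with a prior count of 2. The test was tested on simulated data. Alternatives were DESeq2 1.42.0, limma-voom, other scalings, filters and models, each species alone, and each library left out in turn.

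Reported genes were the 2 with the largest rise and the 2 with the largest fall among called genes with separated libraries in both species, and 3 more as stated. The members, lists and tests were chosen with earlier results of these data known. The left-out pairs, the thinned gene count and the single-library count were added after the data had been seen.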

Additional observations from a re-analysis of the deposited data

Results flagged for a closer look

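Among the commonly called genes, 2 responded differently in the 2 species by edgeR's interaction test. The log2 fold change in D. montana less that in D. virilis was −2.07 (SE 0.39, adjusted p = 0.026) for FBgn0202540 and −2.26 (SE 0.44, adjusted p = 0.034) for FBgn0210321. Species cannot be told apart from strain, pool size or stated age in these differences.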

How the results depend on the processing

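The number of common calls, 191 (136 that rose and 55 that fell), was 303 (217 and 86) with DESeq2's Wald test, 393 (242 and 151) with a mean for each group and 54 (28 and 26) with D. virilis alone. Leaving out 1 library gave 101 to 228 calls, 67 to 185 that rose and 27 to 49 that fell. Same-numbered D. montana libraries did not deviate together from their group means (correlations −0.283, −0.168 and −0.171). Deviations sum to 0 within a group, so these values are not independent. In D. virilis, with 2 libraries a group, the deviations mirror each other, so −0.006 is a single value for both pairs. The numbers are not taken to pair pools. With the replicate block, 97 genes were called (65 and 32), 96 of them among the 191, and FBgn0204686 and FBgn0210321 were not called (log2 3.0 and −1.53, edgeR adjusted p = 0.24 and 0.073). Of the 191 genes, 75 were called in every alternative that used both species. The number of common calls with an interaction was 1 with upper quartile scaling, 3 with DESeq2 size factors and 1 to 4 without 1 D. montana library. The difference in gene reads was 0.92 points among reads placed once, against −1.73 of all reads. Leaving out 1 library gave −2.24 to −1.42 points for gene reads, −3.28 to −2.28 for reads outside genes, 3.94 to 5.28 for reads placed more than once, −0.71 to 1.06 for the 20 most abundant genes (−0.37 with D. virilis alone) and −508.2 to 167.2 for genes detected (218 with D. montana alone). The causes of these shifts were not tested.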

Other observations

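Genes led by a single library were counted after FBgn0204686 had been seen. A gene was counted for a library when its CPM, with 2 added, was at least 4 times that of every other library of the species. Of the 191 common calls, 1 was led in this way by an acclimated library, which is FBgn0204686 itself. Whether called or not, 0, 2 and 0 genes were led by the acclimated D. montana libraries 1, 2 and 3. The acclimated D. virilis libraries led 3 and 3. Among the controls the numbers were 0, 0 and 1 in D. montana and 7 and 3 in D. virilis.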
